A study of Mus musculus with 12 samples.

Results

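The genes described here encode the nuclear subunits of the mitochondrial respiratory chain and of ATP synthase. They were chosen by name alone, as protein-coding genes whose symbols begin with Ndufs, Ndufv, Ndufa, Ndufb or Ndufc (complex I, with the Ndufaf assembly factors left out), Uqcr (complex III), Cox4 to Cox8 (complex IV) or Atp5 (ATP synthase), together with Cyc1 of complex III and the 4 Sdh genes of complex II. The rule took 87 of the 54532 listed gene identifiers, and 83 of them had enough counts to be tested. The untested ones were Cox7b2, Cox8c and a second identifier of Atp5o, each with no count in any library, and Cox8b, the muscle and brown fat form of a complex IV subunit, which stayed under 1 CPM. CPM is the usual unit of read count scaled to the library's total, here after TMM scaling of that total. By complex, the tested members were 36 genes of complex I (7 core, 29 accessory), 4 of complex II, 9 of complex III, 17 of complex IV (Ndufa4 and Ndufa4l2 counted here) and 16 of ATP synthase, with the coupling factor B gene Atp5s apart.

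Electrons from NADH and succinate enter the chain at complexes I and II, pass through coenzyme Q, complex III and cytochrome c, and reach oxygen at complex IV, while the proton gradient they build drives ATP synthase. The catalytic core of complexes I, III and IV is partly encoded in mitochondrial DNA, and the subunits described here are made in the cytosol and imported. In macrophages the balance between this chain and glycolysis shifts with activation, and lipid loading delivers fatty acids that are oxidised through it.

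The series measured bulk RNA of bone marrow-derived macrophages, cultured macrophages grown from mouse marrow, to ask how Gpnmb bears on foam cell formation. The 12 libraries fell into 4 groups of 3: control mice (WT) untreated, mice with the R150X allele of Gpnmb untreated, WT given oxidised low-density lipoprotein (OxLDL), and R150X given OxLDL. R150X is a premature stop codon in Gpnmb, a transmembrane glycoprotein of lysosomes and of lipid-loaded macrophages. All 4 groups carried the same strain label, a DBA/2 and C57BL/6 cross backcrossed to C57BL/6. Mouse age and sex, the OxLDL dose and time, and whether a group's libraries came from separate mice or cultures are not given in the sources used here. Every p-value therefore measures the spread between libraries, which may be technical.

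Total counts ran from 14838969 to 18222868 per library. Gpnmb stood at 5305 to 5374 CPM in untreated WT, 363 to 411 in untreated R150X, 12355 to 12615 in WT with OxLDL and 691 to 724 in R150X with OxLDL, so its level followed the genotype labels. All 8 macrophage markers were tested. Their summed level was 19638 to 19957 CPM in untreated WT and 21162 to 21976 in untreated R150X. With OxLDL it was 23686 to 25355 in WT and 20135 to 21540 in R150X. The 8 did not move together. By the test described below, 3 were called higher and 2 lower in untreated R150X, and 1 higher and 5 lower in R150X under OxLDL. With OxLDL, 4 were higher and 2 lower in WT, and 4 higher and 4 lower in R150X. In WT, Adgre1 and Fcgr1 had log2 fold changes of -1.71 and -1.19, and Cd68 had 0.79. Genes of stromal cells (collagens among them) and of neutrophils were also present, and the summed levels of both lists were lower in R150X and with OxLDL. The 8 stromal markers summed to 12465 to 12553 CPM in untreated WT, 7900 to 7953 in untreated R150X, 5463 to 6100 in WT with OxLDL and 4683 to 4942 in R150X with OxLDL. The 10 neutrophil markers summed to 554 to 586, 281 to 308, 129 to 147 and 40.7 to 41.9 CPM in the same order. Xist, read from the inactive X chromosome, was at 228 to 349 CPM in the 6 R150X libraries and at most 2.75 CPM in the 6 WT libraries. Sex, if it differed between the genotypes, cannot be told apart from genotype in any comparison between them. In bulk RNA, fewer cells of a type and less RNA per cell cannot be told apart. The part of cell make-up, macrophages included, in the results below was not tested. One library, R150X untreated replicate 1, differed from replicates 2 and 3 of its group by 9.23 and 10.1 times the counting noise (chi-square per degree of freedom over genes), against 2.31 to 4.76 for every other pair within a group. Counts of untreated members and of companion lists are given with and without it.

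Untreated R150X macrophages held more subunit mRNA than untreated WT macrophages. The summed level of the 87 members was 5000, 4787 and 4900 CPM in the 3 WT libraries, and 6740, 5696 and 5771 CPM in R150X. All 3 R150X libraries lay above all 3 WT libraries, and replicate 1 lay furthest above. By edgeR's quasi-likelihood test, with adjusted p under 0.05 over all 15338 genes tested taken as called, 66 of 83 members were higher in R150X and 1 was lower. Of all genes tested, 18.1% were called higher and 14.8% lower. The median log2 fold change was 0.32 over the members and 0.01 over all genes, and 79 of the 83 members had a value above 0.

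The rise reached every complex. It covered 6 of 7 core and 22 of 29 accessory genes of complex I, 4 of 4 in complex II, 8 of 9 in complex III, 12 of 17 in complex IV and 14 of 16 in ATP synthase. The median log2 fold changes of the complexes were close to each other, from 0.31 in complex I to 0.35 in complexes III and IV. The single member called lower was Ndufa4l2 of complex IV. Atp5s, with a log2 fold change of -0.11 (SE 0.17), was not called.

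**Figure D1:**
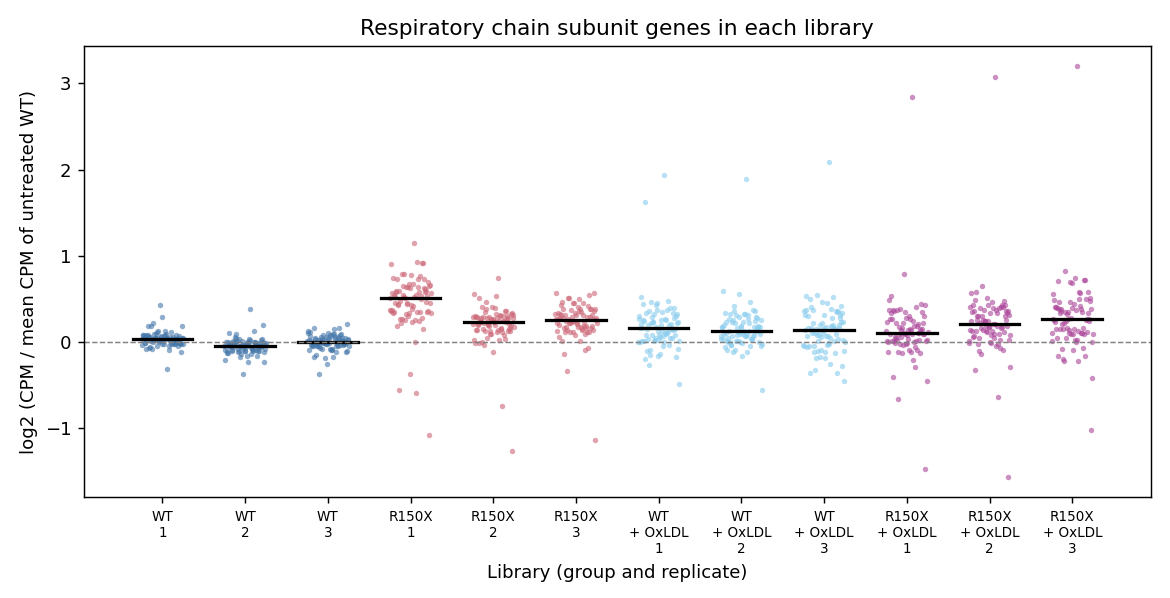
Each point is one of the 83 tested members in one library, plotted as the log2 ratio of its CPM to its mean CPM in untreated WT (vertical axis), with the libraries by group and replicate along the horizontal axis and the median as a bar. The median is 0.51 in R150X replicate 1 and 0.23 and 0.26 in replicates 2 and 3, and 0.11 to 0.27 in the 6 OxLDL libraries.

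In complex I, the largest rise was in Ndufs6, a zinc-binding accessory subunit of the NADH-oxidising arm. Its level was 11.7, 9.18 and 11.3 CPM in untreated WT and 23.8, 15.6 and 15.2 CPM in untreated R150X. The groups did not overlap, and the log2 fold change was 0.75 (SE 0.16, adjusted p = 0.0013). Exons of Ndufs6 overlap those of Mrpl36 on the other strand, and Mrpl36 itself differed by 0.29 (adjusted p = 0.026). Ndufa1, a small membrane subunit encoded on the X chromosome, was at 14.7, 11.97 and 14.9 CPM in WT, while R150X had 26.1, 20.4 and 20.7 CPM. Every R150X value exceeded every WT value, with a log2 difference of 0.69 (SE 0.11 and adjusted p = 8.6e-05). Ndufa5, an accessory subunit of the matrix arm, stood at 12.7, 11.6 and 12.5 CPM in WT, while R150X had 19.2, 16.9 and 17.4 CPM. That difference was 0.54 on the log2 scale (SE 0.10, adjusted p = 0.00040). Ndufa2 and Ndufa13, the latter also known as GRIM-19, had log2 fold changes of 0.58 and 0.57.

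In complex II, which is also the succinate dehydrogenase of the citric acid cycle, the iron-sulfur subunit gene Sdhb was at 88.5, 83.7 and 87.4 CPM in WT, while R150X had 124, 106 and 108 CPM. The R150X libraries lay clear of the WT libraries, at a log2 difference of 0.38 (SE 0.06 and adjusted p = 4.5e-05). The membrane anchor gene Sdhd and the flavoprotein gene Sdha rose by 0.31 and 0.22 on the log2 scale. In complex III, the small subunit gene Uqcr10 was at 34.1, 29.2 and 34.4 CPM in WT, while R150X had 51.9, 43.0 and 43.0 CPM. Its log2 fold change was 0.49 (SE 0.08, adjusted p = 7.3e-05). Uqcrfs1, the Rieske iron-sulfur protein, rose by 0.39. Uqcrc2, a core protein of the same complex, was the exception, at 66.7 ± 1.6 CPM in WT, while R150X had 68.7 ± 5.1 CPM (SD, n = 3 each), and was not called.

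In complex IV, Cox4i1, the most abundant nuclear member of the complex, was at 201, 193 and 206 CPM in untreated WT and 307, 247 and 245 CPM in untreated R150X. Its log2 fold change was 0.41 (SE 0.07, adjusted p = 5.9e-05), with no overlap of the groups. Cox5b, a zinc-binding subunit on the matrix side, was at 29.0, 28.01 and 31.1 CPM in WT, while R150X had 55.6, 37.7 and 43.0 CPM (0.62 on the log2 scale, SE 0.13, adjusted p = 0.0011). Ndufa4, once assigned to complex I, was at 54.9, 50.1 and 51.4 CPM in WT, while R150X had 80.3, 69.1 and 65.9 CPM (0.46, SE 0.07, adjusted p = 4.4e-05). In each of these genes replicate 1 of R150X was the highest library. Over all members it was the highest of its group's 3 libraries for 78 of 83, against 39.2% of all genes tested.

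In ATP synthase, the gene of the catalytic beta subunit, Atp5b, was the most abundant of all members. It stood at 520, 501 and 507 CPM in WT, while R150X had 665, 598 and 593 CPM, which is 0.28 on the log2 scale (SE 0.05, adjusted p = 0.00013). Atp5j, coupling factor F6 of the peripheral stalk, was at 46.5, 44.0 and 45.9 CPM in WT, while R150X had 68.2, 55.3 and 59.4 CPM (0.42, SE 0.06, adjusted p = 4.2e-05). Its exons overlap those of Gabpa on the other strand, a gene of like level (54.7 CPM on average) whose own log2 fold change was -0.08. Of the 3 genes for the same c-ring protein, Atp5g3 rose by 0.34 (adjusted p = 7.5e-05), while Atp5g2 and Atp5g1 had log2 fold changes of 0.14 and 0.21 and were not called. The 14 called genes included subunits of the catalytic head, the stalk and the membrane part.

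**Figure D2:**
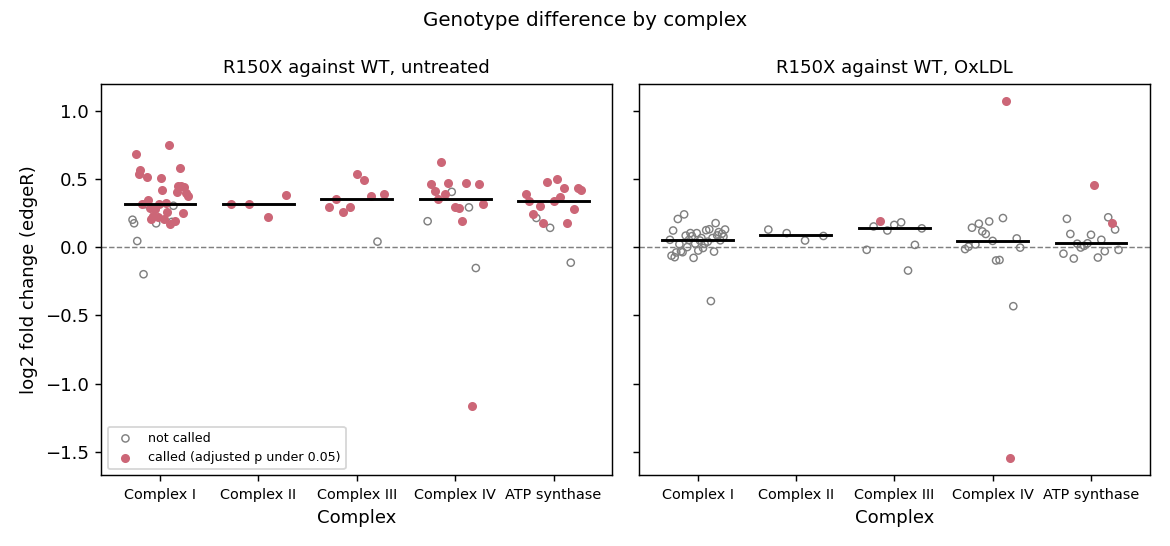
Each point is a member's log2 fold change of R150X against WT (vertical axis) by complex (horizontal axis), untreated on the left and with OxLDL on the right, filled where called, with the median of each complex as a bar. Atp5s is drawn with ATP synthase, and Ndufa4l2 is the lowest point in both panels.

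Without R150X replicate 1, 45 of 83 members were called higher and 1 lower, and the median log2 fold change of the members was 0.23. The counts by complex were then 16 of 36 in complex I, 4 of 4 in complex II, 6 of 9 in complex III, 9 of 17 in complex IV and 10 of 16 in ATP synthase. The 18.1% of all genes called higher belongs to the fit of all 12 libraries. Leaving out each library in turn gave 3878 to 4838 genes called in either direction, against 5056 in that fit.

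The untreated genotype difference moved with transcript length, across all genes as well as in the members. Subunit mRNAs are short: 49 of the 83 had a principal transcript under 1000 bases. Among 686 other genes with transcripts under 1 kb, the median log2 fold change was 0.24 and 41.3% were called higher. It was 0.14 in other genes of 1 to 2 kb, 0.03 at 2 to 4 kb and -0.12 at 4 kb or more. The members had medians of 0.41 under 1 kb and 0.25 at 1 kb or more. Spearman's rho between length and the untreated log2 fold change was -0.58 across the 83 members and -0.37 across 13181 tested genes with a length. Genes of one library are not independent replicates and all points share the same 6 libraries. With a trend on length removed from every library, 41 of 83 members were called higher and 1 lower, with a median of 0.17, and without R150X replicate 1 as well it was 28 higher and 1 lower with a median of 0.15. The share of all genes called higher in these altered fits is not given here, and the 18.1% of the main fit does not apply to them. Under both changes together, 4 of 4 genes of complex II, 7 of 16 of ATP synthase, 6 of 17 of complex IV, 3 of 9 of complex III and 8 of 36 of complex I were called higher, the last all accessory. Among the members named above, Ndufs6, Ndufa1, Ndufa2, Ndufa5, Ndufa13, Sdha, Sdhb, Sdhd, Uqcr10, Uqcrfs1, Cox4i1, Cox5b, Ndufa4, Atp5b, Atp5j and Atp5g3 were still called higher with both changes.

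**Figure D3:**
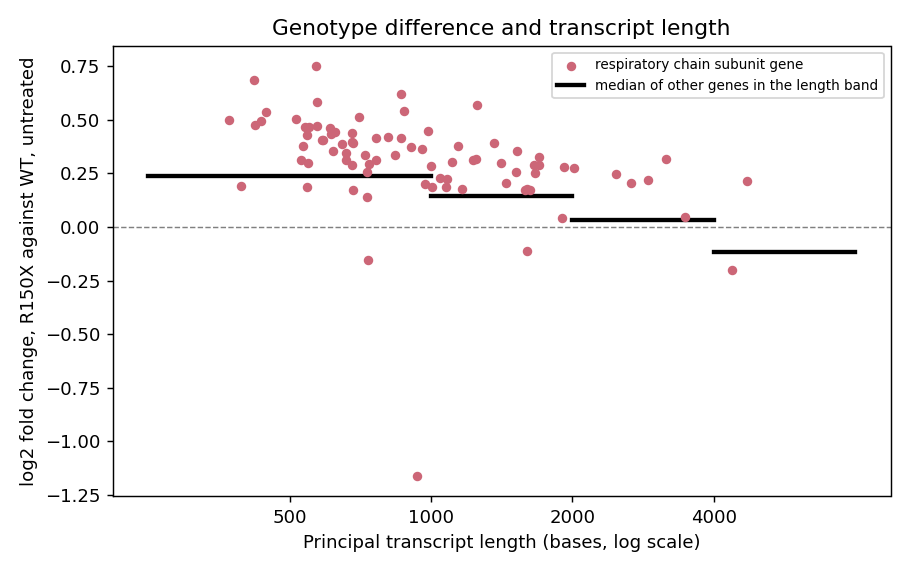
Each point is a member's log2 fold change between untreated R150X and WT (vertical axis) against the length of its principal transcript in bases (horizontal log axis), and the bars are the medians of other genes in 4 length bands (under 1 kb, 1 to 2 kb, 2 to 4 kb, and 4 kb or more, the outer bands open-ended). Other genes fall from 0.24 to -0.12 with length, and the members lie mostly above the bar of their band.

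The promoters of members that rose together in untreated R150X are shown because the genes for these subunits are known to share regulators, among them NRF1, the ETS factor GABP, YY1 and the estrogen-related receptors. RefSeq promoters (GRCm38.p6, 250 bases before to 50 after the start) were matched to 64 of the 83 tested members. For each complex, the called member with the most matches to 4 motifs between 250 bases before and 30 after the start is printed, ties going to the larger log2 fold change. The sequences run 5′ to 3′, from 130 bases before to 20 after the start of transcription, with the matches in capitals. All 5 lie on the minus strand: Ndufs6 at chr13:73328463-73328612, Sdha at chr13:74350221-74350370, Uqcr11, a small complex III subunit, at chr10:80406802-80406951, Cox6a1 at chr5:115348939-115349088 and Atp5h, subunit d of the ATP synthase stalk, at chr11:115419900-115420049.
Ndufs6: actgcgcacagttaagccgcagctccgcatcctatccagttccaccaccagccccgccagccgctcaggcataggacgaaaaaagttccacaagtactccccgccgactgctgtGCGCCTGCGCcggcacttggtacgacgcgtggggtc
Sdha: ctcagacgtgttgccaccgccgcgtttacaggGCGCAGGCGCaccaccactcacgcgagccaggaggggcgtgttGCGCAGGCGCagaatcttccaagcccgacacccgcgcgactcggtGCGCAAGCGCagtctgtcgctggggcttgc
Uqcr11: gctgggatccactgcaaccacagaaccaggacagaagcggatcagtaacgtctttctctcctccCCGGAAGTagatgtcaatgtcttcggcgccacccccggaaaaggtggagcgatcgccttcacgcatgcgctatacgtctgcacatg
Cox6a1: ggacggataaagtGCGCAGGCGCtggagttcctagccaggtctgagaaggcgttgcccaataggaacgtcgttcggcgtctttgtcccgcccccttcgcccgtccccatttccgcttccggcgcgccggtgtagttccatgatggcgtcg
Atp5h: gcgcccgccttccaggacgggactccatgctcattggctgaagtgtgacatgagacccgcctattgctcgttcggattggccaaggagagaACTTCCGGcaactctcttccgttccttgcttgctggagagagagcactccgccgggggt
The capitals in Ndufs6, Sdha and Cox6a1 are matches to the NRF1 core (GCGCA, any base, GCGC), of which Sdha held 3. The one in Ndufs6 reads on the other strand. Those in Uqcr11 and Atp5h match the ETS core CCGGAAGT, with Atp5h on the other strand. Cox6a1 and Atp5h each held a further NRF1 match upstream of the printed bases, and Ndufs6 a YY1 match downstream of them. Uqcrc1 of complex III held 2 NRF1 matches in the whole window, of which 1 lay too far downstream to count in the choice.

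Over the 300-base windows, exact matches on either strand were counted in the 64 members and in all 27025 genes of the table. The NRF1 core was found in 16 members (25%) and in 5.19% of all genes. The YY1 core AAGATGGC was in 9 members (14.1%) against 3.19%, the ETS core in 5 (7.81%) against 4.31%, and TCAAGGTCA, the short site of the estrogen-related receptors, in 2 (3.13%) against 0.466%. The common CCAAT pentamer was in 28 members (43.8%), near its share of all genes (41.1%). Of the 52 matched members called higher in untreated R150X, 14 held the NRF1 core, and of the other 12, 2 did. A match is a run of letters and says nothing of binding.

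Few mRNAs of regulators of mitochondrial biogenesis, factors named for these motifs among them, were called. Of 12 tested regulators of mitochondrial biogenesis, 1 was called higher in untreated R150X and none lower, with a median log2 fold change of -0.03, and without R150X replicate 1 it was also 1 of 12. The one was Esrra, the estrogen-related receptor alpha, at 49.3, 46.5 and 48.7 CPM in WT, while R150X had 74.99, 56.9 and 61.6 CPM (0.42, adjusted p = 0.0015). Nrf1 (-0.14), Gabpa (-0.08), Yy1 (-0.07) and Tfam (-0.04), the mitochondrial DNA packaging factor, were not called. With the length trend removed, the median of the 12 was 0.07, against 0.17 in the members. Without R150X replicate 1 as well, the medians were 0.09 and 0.15. In each of these fits 1 of the 12 was called higher. Ppargc1a was too low to test, at most 0.395 CPM in any library.

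With OxLDL in both genotypes, few members differed between R150X and WT. The summed level was 5323, 5207 and 5240 CPM in WT with OxLDL and 5348, 5514 and 5700 CPM in R150X with OxLDL. The lowest R150X library lay just above the highest WT library. The test called 4 of 83 members higher (4.82%) and 1 lower (1.2%), where 6.1% and 6.92% of all genes were called. The members' share higher was thus close to that of all genes, and their share lower was below it. The median log2 fold change was 0.05 over the members and 0.00 over all genes. The 4 higher were Cox6a2, Atp5k, Cyc1 and Atp5b, and the lower one was Ndufa4l2.

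Cyc1, the cytochrome c1 subunit of complex III, was at 69.0, 68.9 and 74.9 CPM in WT with OxLDL and 76.4, 80.8 and 85.8 CPM in R150X with OxLDL. The groups were close but did not overlap (0.19, SE 0.06, adjusted p = 0.039). Atp5b was at 463, 454 and 471 CPM against 523, 506 and 545 CPM (0.18, SE 0.05, adjusted p = 0.014). Atp5k, subunit e of the membrane part of ATP synthase, was at 8.08, 9.12 and 7.51 CPM against 9.72, 11.4 and 12.7 CPM (0.45, SE 0.14, adjusted p = 0.029). Each of these 3 calls was lost when certain single libraries were left out: Atp5b without WT OxLDL replicate 2 or R150X OxLDL replicate 3, and Atp5k and Cyc1 without any one of 4 of the 6 OxLDL libraries. The count of members called higher was 2 without WT OxLDL replicate 1, WT OxLDL replicate 2 or R150X OxLDL replicate 2, and 1 without R150X OxLDL replicate 3. The comparison between genotypes under OxLDL and the untreated one share no library.

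In WT macrophages with OxLDL, the called members went mostly up. Against untreated WT, 25 of 83 were called higher and 2 lower, with a median log2 fold change of 0.16, where 22.7% of all genes were higher and 23.1% lower. The 2 lower were Cox5a and Atp5b. Among 686 other genes with transcripts under 1 kb, 35.9% were higher and 15.6% lower, with a median of 0.18. The members' share higher, 30.1%, lay between those of all genes and of these short ones. The 25 lay in complex I (14 of 36), complex II (2 of 4), complex III (3 of 9), complex IV (3 of 17) and ATP synthase (3 of 16). Ndufa6, a small accessory subunit of complex I, was at 32.4, 28.7 and 33.0 CPM untreated and 44.9, 47.4 and 45.4 CPM with OxLDL, well apart (0.55, SE 0.07, adjusted p = 3.2e-06). Cox7a2l, which joins complexes III and IV into supercomplexes, went from 135, 133 and 132 CPM to 186, 185 and 191 CPM (0.49, SE 0.06, adjusted p = 2.8e-07). Cox4i1 and the X-linked complex I gene Ndufb11 each rose by 0.33, Uqcrfs1 by 0.32 and Sdhd by 0.26. Ndufa12 had the largest value at 0.87 (adjusted p = 0.0086). It rested on WT OxLDL replicate 1 (17.4 CPM, against 5.85 and 7.51 in replicates 2 and 3), and without that library it was 0.24 with adjusted p = 0.249.

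The split of these calls depended on scaling. With library totals alone in place of TMM scaling, the OxLDL response of WT gave 9 members higher and 8 lower, with medians of 0.05 over the members and -0.10 over all genes. With the length trend removed it gave 16 higher and 5 lower, and without WT replicate 2 or WT OxLDL replicate 1 it gave 14 and 12 higher.

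In R150X macrophages the called members went mostly the other way. Against untreated R150X, OxLDL left 24 of 83 lower and 2 higher, where 20.6% of all genes were lower and 18.4% higher (39.0% in either direction). The median was -0.12. It was -0.01 with the length trend removed, 0.00 with R150X replicate 1 left out as well, and -0.04 without that library alone. The 24 were 10 of 16 in ATP synthase, 7 of 17 in complex IV, 5 of 36 in complex I, 1 of 4 in complex II and 1 of 9 in complex III. Without R150X replicate 1 it was 15 lower and 6 higher.

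Among the ATP synthase genes, Atp5g3 of the c-ring was at 154, 136 and 137 CPM in untreated R150X and 114, 115 and 112 CPM with OxLDL (-0.32, SE 0.06, adjusted p = 6.9e-05). Atp5f1, subunit b of the stalk, went from 171, 156 and 156 CPM to 131, 130 and 122 CPM (-0.33, SE 0.05, adjusted p = 2.3e-05). Both genes were lower with OxLDL in every library. Atp5b fell by 0.24 and Atp5j2, subunit f, by 0.34. The fall of Atp5b was not particular to R150X, as it was called lower with OxLDL in WT too. In complex IV, Ndufa4 fell from 80.3, 69.1 and 65.9 CPM to 51.3, 58.9 and 55.6 CPM (-0.37, SE 0.07, adjusted p = 0.00024). Sdhb fell by 0.30 in complex II. Uqcrb of complex III had a value of -0.50 (adjusted p = 0.0084), which was -0.30 without R150X replicate 1 and not called. The 2 members called higher were Cox6a2 and Cox7a2l, the latter from 169, 145 and 143 CPM to 176, 176 and 174 CPM (0.21, adjusted p = 0.0055). In 48 members the fitted value was above 0 in WT and below 0 in R150X, in 20 above 0 in both, in 15 below 0 in both, and in none below 0 in WT and above 0 in R150X. These signs include values that were not called. Only 2 members were called higher in WT and called lower in R150X, while 2 were called higher in both and 2 lower in both.

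**Figure D4:**
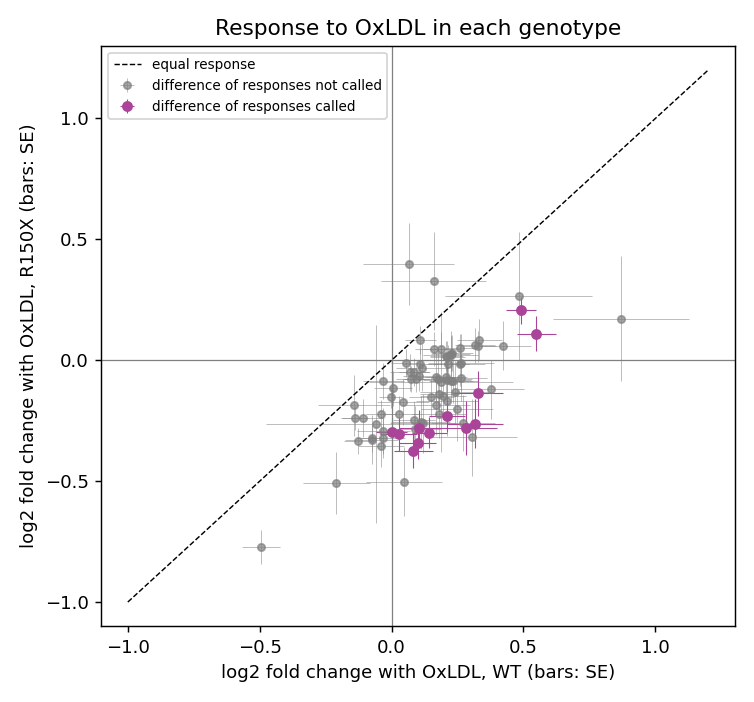
Each point is a member, with its log2 fold change with OxLDL in WT on the horizontal axis and in R150X on the vertical axis, bars giving the SE, and the 12 members whose responses differed between genotypes in purple. Most points lie under the dashed line of equal response; Cox6a2, at 1.96 and 2.74, is outside the frame.

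The difference between the 2 responses was tested directly. The OxLDL response was lower in R150X than in WT for 12 of 83 members and higher for none, where 5.19% and 3.13% of all genes were called (8.32% in either direction). At an unadjusted p under 0.05 it was 46 lower and 0 higher, where 3374 of all 15338 genes passed in either direction. DESeq2 called 13 members lower and 0 higher. The median of the members was -0.27, against -0.02 over all genes, and 80 of 83 were below 0. Other genes with transcripts under 1 kb had a median of -0.22, with 9.62% called lower. Members under 1 kb had a median of -0.32, with 18.4% lower. Among members of 1 kb or more 8.82% were lower, near the 9.11% of other genes of 1 to 2 kb. The 12 were Ndufa1, Ndufa5 and Ndufa6 of complex I, Sdhb of complex II, Ndufa4, Cox6b1, Cox7a2l and Cox7b of complex IV, and Atp5e, Atp5h, Atp5j and Atp5j2 of ATP synthase. All 12 were also called higher in untreated R150X, which uses the same untreated libraries. Of the companions, 1 of 12 tested mitochondrially encoded subunits was called lower in this test, and 0 were higher. Of the 8 macrophage markers, 6 were called lower and 1 higher, with a median of -0.35.

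Atp5j shows the pattern. It was at 44.0 to 46.5 CPM in untreated WT, 55.3 to 68.2 CPM in untreated R150X, 49.5 to 50.8 CPM in WT with OxLDL and 49.4 to 49.6 CPM in R150X with OxLDL. Untreated R150X was thus the high group, and the OxLDL groups lay between it and untreated WT. The difference of responses was -0.44 (SE 0.09, adjusted p = 0.0042). In Ndufa5 the 4 groups stood at 12.3 ± 0.58, 17.8 ± 1.2, 15.2 ± 2.1 and 14.9 ± 0.89 CPM in the same order (SD, n = 3 each), and the difference was -0.58 (SE 0.15, adjusted p = 0.016). Atp5h, whose promoter is printed above, stood at 55.4 ± 3.3, 72.8 ± 7.5, 64.1 ± 2.2 and 62.1 ± 3.0 CPM, with a difference of -0.44 (SE 0.10, adjusted p = 0.0063). The count of 12 fell to 8 without R150X replicate 1, 5 without WT replicate 2, 6 without WT OxLDL replicate 1 and 7 without R150X OxLDL replicate 1, and it was 21 without R150X replicate 2. With the length trend removed it was 2, with a median of -0.12. These 2 were Atp5j and Atp5h.

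3 members departed from their complexes. Cox5a, a subunit on the matrix side of complex IV, fell with OxLDL in both genotypes. It was at 74.9, 75.004 and 78.2 CPM in untreated WT and 54.1, 51.9 and 55.7 CPM in WT with OxLDL (-0.50, SE 0.07, adjusted p = 7.2e-06). In R150X it went from 113, 94.9 and 91.0 CPM to 55.5, 62.4 and 57.1 CPM (-0.77, SE 0.07, adjusted p = 1.1e-08). No treated library reached any untreated one. The difference of the 2 responses, -0.27, was not called (adjusted p = 0.10). Cycs, the cytochrome c that complex IV oxidises, also fell, by 0.60 in WT and 0.67 in R150X.

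Ndufa4l2, the paralog of Ndufa4 known to be induced by hypoxia, was lower in R150X under both conditions. It was at 17.6, 15.3 and 20.8 CPM in untreated WT and 8.47, 7.44 and 8.13 CPM in untreated R150X (-1.16, SE 0.13, adjusted p = 6.6e-07). With OxLDL it was at 20.9, 20.1 and 21.1 CPM in WT, while R150X had 6.46, 6.06 and 8.83 CPM (-1.54, SE 0.13, adjusted p = 3.0e-08). No R150X library reached any WT library. The calls were kept in every alternative, with and without R150X replicate 1 and with the length trend removed. Per kilobase of transcript, Ndufa4 exceeded Ndufa4l2 by 4.46 times in untreated WT and 13.7 times in untreated R150X, and by 4.08 and 11.9 times with OxLDL. Its exons overlap those of Shmt2 on the other strand, a gene at 57.3 CPM on average over the 12 libraries, with log2 fold changes between genotypes of -0.27 untreated and -0.13 with OxLDL.

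Cox6a2, the heart and muscle form of a complex IV subunit, rose with OxLDL from a level near the detection floor. It was at 0.485, 0.791 and 0.537 CPM in untreated WT and 2.32, 2.25 and 2.57 CPM in WT with OxLDL (1.96, SE 0.29, adjusted p = 1.2e-05). In R150X it went from 0.400, 1.01 and 0.769 CPM to 4.33, 5.09 and 5.54 CPM (2.74, SE 0.26, adjusted p = 2.4e-08). Under OxLDL the R150X libraries lay above the WT libraries (1.07, SE 0.22, adjusted p = 0.0021). The test of the difference of responses gave 0.78 (adjusted p = 0.30). The exons of Cox6a2 overlap those of Itgad, an integrin gene on the other strand, which was at 1.99, 1.23, 10.9 and 6.28 CPM on average in untreated WT, untreated R150X, WT with OxLDL and R150X with OxLDL. Itgad rose by 2.45 in WT and 2.34 in R150X with OxLDL, and under OxLDL it was lower in R150X (-0.80, adjusted p = 0.0055). Cox6a2 was not called between the untreated genotypes, at levels near the detection floor. Adipocyte markers were highest in R150X with OxLDL and were higher in untreated R150X than in untreated WT. The 7 markers summed to 0.738 to 1.02 CPM in untreated WT, 3.13 to 4.395 in untreated R150X, 2.36 to 4.36 in WT with OxLDL and 38.6 to 44.1 in R150X with OxLDL, with 3 of 7 (Adipoq, Plin1, Car3) tested and Lep at 0 in every library. The 6 muscle markers summed to at most 0.808 CPM in any library. The part of Itgad and of adipocyte genes in the Cox6a2 values was not tested.

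**Figure D5:**
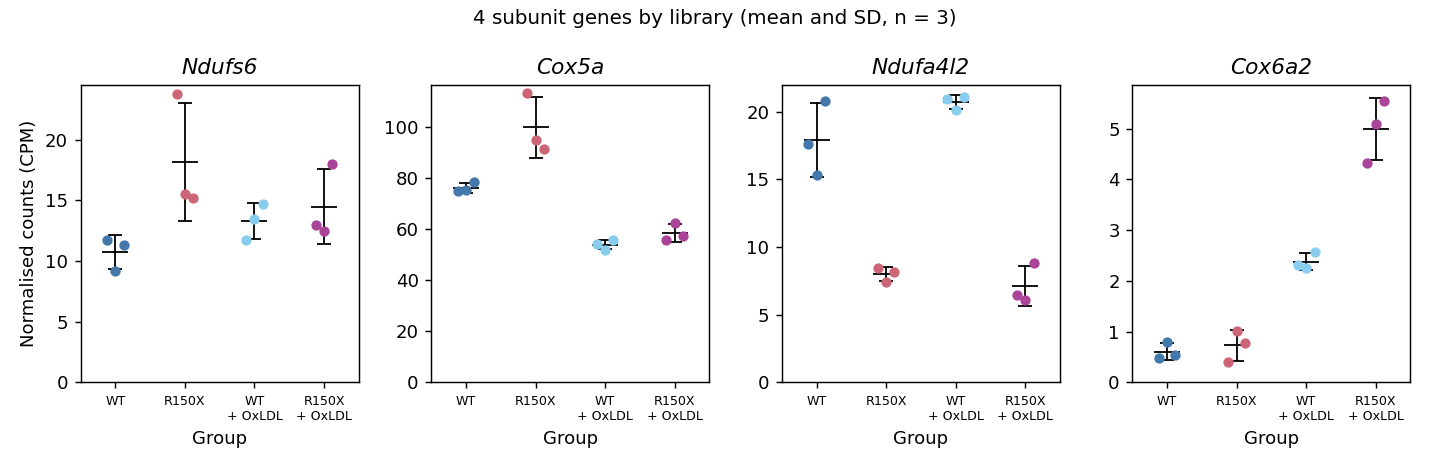
CPM (vertical axes, from 0) of Ndufs6, Cox5a, Ndufa4l2 and Cox6a2 in the 12 libraries by group (horizontal axes), each point a library and the black bars the mean and SD of 3. Ndufs6 is highest in untreated R150X, Cox5a is lower in both OxLDL groups, Ndufa4l2 is lower in both R150X groups, and Cox6a2 is highest in R150X with OxLDL.

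Apart from the c-ring protein, the other subunits with alternative forms were read mostly from one of them. Per kilobase of transcript in untreated WT, Cox4i1 exceeded Cox4i2 by 113 times, Cox6b1 exceeded the testis form Cox6b2 by 57.6 times, and Cox7a2 exceeded the muscle form Cox7a1 by 39.3 times. Cox6a1 exceeded Cox6a2 by 222 times in untreated WT, 60.0 times in WT with OxLDL and 30.6 times in R150X with OxLDL. Cox4i2, Cox6b2 and Cox7a1 stayed under 2.5 CPM in every library and passed no test. Of the c-ring genes, Atp5g3 exceeded Atp5g2 by 1.55 times and Atp5g2 exceeded Atp5g1 by 13.2 times.

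The 3 X-linked members rose in untreated R150X. Ndufa1, Ndufb11 and Cox7b had log2 fold changes of 0.69, 0.37 and 0.29 untreated, and of 0.12, 0.13 and -0.10 with OxLDL, where none was called. Xist was high in R150X in both conditions, so its part, or that of sex, in these values cannot be told apart from that of genotype.

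Beyond the subunits, the lists of other mitochondrial genes are read against the 18.1% of all genes called higher and 14.8% called lower in untreated R150X. Of 47 tested assembly factors, 10 were higher and 1 was lower, with a median of 0.17, a share higher that was near that of all genes. The lower one was Cox17, the copper chaperone that delivers copper to complex IV, at 6.41, 5.85 and 6.39 CPM in WT, while R150X had 1.73, 1.52 and 1.70 CPM (-1.91, adjusted p = 4.2e-08). It was also lower under OxLDL (-1.28, adjusted p = 1.5e-05). Of 19 electron carriers, coenzyme Q synthesis and exchange genes, 6 were higher and 0 lower. Among them Slc25a5, the adenine nucleotide translocase that exports ATP, rose by 0.37, and Coq7, a hydroxylase of coenzyme Q synthesis, by 0.73. Of 16 pyruvate dehydrogenase and citric acid cycle genes, 8 were higher and 0 lower (median 0.12), and of 16 genes of import, channels and membrane shape, 8 were higher and 0 lower (median 0.21). Vdac2, a channel of the outer membrane, rose by 0.43 (adjusted p = 1.2e-06). Cytosolic ribosomal proteins, also encoded by short transcripts, were higher in 49 and lower in 1 of 78 tested, with a median of 0.23. With the length trend removed, these counts were 21 higher and 2 lower for the ribosomal proteins, with a median of 0.04, and 3 higher and 1 lower for the assembly factors. Without R150X replicate 1, the counts called higher were 6 of 47 assembly factors, 4 of 19 carriers and coenzyme Q genes, 8 of 16 pyruvate dehydrogenase and citric acid cycle genes, 7 of 16 import genes and 33 of 78 ribosomal proteins (median 0.13).

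The mitochondrially encoded subunits of the same complexes were read in the same way. In untreated R150X 5 of 12 tested were called higher (median 0.15), against 18.1% of all genes. It was 2 of 12 without R150X replicate 1 and 0 of 12 with the length trend removed. With OxLDL, 12 of 12 were higher in WT (median 0.68), against 22.7% of all genes, and 9 of 12 in R150X (median 0.45), against 18.4%. Of the 83 nuclear members, 25 and 2 were higher. mt-Cytb, the cytochrome b of complex III, rose by 0.82 in WT and 0.68 in R150X. mt-Co1, the catalytic subunit of complex IV, rose by 0.57 and 0.36, in contrast to its partner Cox5a. No test compared the nuclear with the mitochondrial list. Ucp2, a carrier of the inner membrane, stood at 768, 771 and 780 CPM in untreated WT, 760, 749 and 781 CPM in untreated R150X, 1138, 1144 and 1196 CPM in WT with OxLDL and 821, 826 and 852 CPM in R150X with OxLDL. It rose by 0.59 in WT and 0.13 in R150X, and the difference of responses was -0.46 (adjusted p = 1.3e-05).

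Counting of 30 members could include reads from genes whose exons overlap theirs, because the strand setting of the counting is not given in the sources used here. Besides Ndufs6, Atp5j, Ndufa4l2 and Cox6a2, this touches, among others, Cox4i1 (Emc8, 41.2 CPM on average) and Ndufb11 (Rbm10, 31.0 CPM). The overlapping gene was also the more abundant one for Ndufb2 (3.09 CPM, Braf 57.5), Ndufs1 (67.4 CPM, Eef1b2 229) and Cox6c (65.9 CPM, Vps13b 87.5). The overlapping genes of Cox5a and Uqcrb stayed at 0.518 and 0.957 CPM on average. The part of overlapping genes in the members' values was not tested. The 13 matching symbols that are not protein-coding were left out, 12 of them processed pseudogenes. Ndufab1-ps, at 5.55 CPM, was the only pseudogene above 1 CPM, so the value of Ndufab1 is uncertain.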

How the data were processed

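Bulk RNA-seq of 12 libraries was used. Per the labels' protocols, total RNA was taken with a Qiagen RNeasy Plus Mini kit and libraries were made with a Hieff NGS Ultima Dual-mode kit. The submitters' processing notes name FastQC, HISAT2, featureCounts, DESeq2 and the builds mm10 and GRCm38. The authors deposited raw gene counts, which are whole numbers per gene identifier; versions, annotation and strand setting are not given in the sources used here.

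From the counts, genes were filtered with filterByExpr, scaled by TMM and fitted in 1 edgeR 4.0.16 quasi-likelihood model with 4 groups (R 4.3.3, limma 3.58.1), and 5 contrasts were tested with Benjamini-Hochberg adjustment over all 15338 genes. Levels are CPM after TMM scaling. The SE of a log2 fold change is its size divided by the square root of F. 3 counts amount to 0.158 to 0.209 CPM, and the p-values and this floor cover these libraries only. Alternatives were library totals alone, DESeq2 1.42.0, no low-count filter, a fit of only the groups compared, a replicate block, leaving out each library, and a loess offset on transcript length in each library (span 0.3). The offset on the principal transcript's length (GENCODE, GRCm38), called the length trend in the text, was added after seeing the data. The fit was tested on simulated data.

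Genes were named by rule in each comparison: among called members whose higher group averaged 5 CPM or more, the 6 highest and 6 lowest log2 fold changes, in each complex the 2 members with the smallest adjusted p and the most abundant one, the isoform genes, and up to 3 genes with the smallest adjusted p from each companion list. Uqcrc2, Uqcr11, Atp5g1 and Atp5g2 untreated, Atp5h, the X-linked members under OxLDL, Ppargc1a, Yy1 and Tfam were chosen after their values were seen. The members and gene lists were chosen with earlier results of these data known. One gene that the rule names is not reported here.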

Additional observations from a re-analysis of the deposited data

Results flagged for a closer look

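For 12 subunit genes the OxLDL response differed between R150X and WT by the test of the difference itself (edgeR's quasi-likelihood test, adjusted over all genes). The differences of the log2 responses, R150X minus WT, were -0.58 for Ndufa5, -0.56 for Ndufa1 and -0.44 for Ndufa6 in complex I, and -0.30 for Sdhb in complex II. In complex IV they were -0.46 for Ndufa4, -0.38 for Cox7b, -0.33 for Cox6b1 and -0.28 for Cox7a2l. In ATP synthase they were -0.46 for Atp5e and -0.44 for each of Atp5j, Atp5j2 and Atp5h. With the length trend removed, only Atp5j and Atp5h were called.

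Outside the subunits, the same test called mt-Nd3, a mitochondrially encoded subunit of complex I, at -1.18. Among assembly factors it called Ndufaf8 at -0.65 and Tmem126b at -0.47. The carriers Ucp2 and Etfa were called at -0.46 and -0.29, and the channel gene Vdac2 at -0.29. All 18 differences are below 0, so the response was lower in R150X.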

How the results depend on the processing

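Single-gene values were compared for the members named by rule in each comparison. Where a gene was called in the main fit or the alternative, 1 value changed sign. It was Cox7a2l untreated, at -0.00534 with the principal-length offset and without R150X replicate 1. Besides this 1, 170 values lost the call, 48 gained one and 2193 kept their side of the threshold. For values called in neither fit the sign was not compared. The counts over all genes stayed within 1.5 times in every alternative.

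With the principal-length offset, members called were 41 higher untreated, 16 higher and 5 lower for OxLDL in WT, 8 higher in R150X and 2 lower for the difference of responses. Without R150X replicate 1 as well, they were 28 higher untreated, 7 higher and 15 lower for OxLDL in R150X, and 2 lower for the difference. With that offset and the replicate block, they were 2 lower between genotypes under OxLDL, 6 lower in WT, 9 higher in R150X and 5 lower for the difference. The offset on union exon length gave 5 higher in R150X, and 7 with the block. Library totals alone gave 9 higher and 8 lower in WT and 6 lower for the difference. No filter gave 4 lower in WT and 28 lower for the difference, and fitting only the groups compared gave 4 lower in WT. The share of calls over all genes that were higher moved from 55.0% to 36.1% untreated, 49.6% to 31.6% in WT and 37.6% to 66.5% for the difference when library totals alone were used.

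Leaving out 1 library in turn gave 45 to 67 higher untreated, 1 to 4 higher under OxLDL, 12 to 22 higher and 1 to 2 lower in WT, 2 to 6 higher and 15 to 29 lower in R150X, and 5 to 21 lower for the difference. The labels do not say whether replicate numbers pair the samples. Deviations of same-numbered libraries of different groups correlated at -0.042 to 0.162 (median 0.037). Those of differently numbered ones correlated at -0.125 to 0.068 (median -0.016). Between genotypes, same-numbered libraries were at 0.111, 0.035 and 0.162 untreated, and at 0.055, 0.044 and 0.068 with OxLDL. Pairing by number was not tested. The replicate block alone gave 66 higher untreated, 26 higher and 3 lower in WT, 24 lower in R150X and 18 lower for the difference. Depth limits the members near 1 CPM, where 3 counts are 0.158 to 0.209 CPM.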
